A study of Mus musculus with 12 samples.

Results

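Axon guidance genes were followed in 2 mouse tumour cell lines, with and without irradiation. The set was chosen by symbol alone, with earlier results of these data known. It took every gene whose symbol names an ephrin, Eph receptor, semaphorin, plexin, Robo receptor, Slit or netrin. This gave 62 genes among the 57180 rows of the deposited count table: 8 ephrins, 14 Eph receptors, 20 semaphorins, 9 plexins and 11 Slit, Robo and netrin genes. Of these, 48 had enough counts to be tested, among 14362 genes tested in all. The other 14 (Epha3, Epha5, Epha6, Ephb1, Ntn5, Plxnc1, Robo1, Robo2, Robo4, Sema3d, Sema4f, Sema5b, Sema6a and Slit3) had at most 19 counts in any library and at most 0.591 CPM (counts scaled to a common library size) in any group's mean.

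The 4 groups held 3 libraries each. They were MB49 cells given 8 Gy of radiation, untreated MB49 controls, KPC cells given 8 Gy, and untreated KPC controls. The MB49 cells derive from a bladder tumour and the KPC cells from a pancreatic ductal adenocarcinoma; both carry the genotype label WT and grew in DMEM with serum. The study is about vesicles of senescent tumour cells used to strengthen radiotherapy. Irradiated cells were collected after 48 h. No such time is given for controls, and dose and time in culture cannot be told apart. The design text also speaks of senescent cells, while each library's label gives only control or 8 Gy.

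The libraries held 19005991 to 26337928 counts. No label says whether replicate libraries were separate cultures, and p-values therefore reflect the spread among the sequenced libraries alone. Each cancer type is represented by 1 line. In MB49, 2 of 7 urothelial markers were at 0 in irradiated cells and 3 of 7 in controls, and their sum stayed between 4.58 and 17.7 CPM, nearly all of it Gata3 (means of 3.87 CPM after 8 Gy and 14.2 CPM in controls). The group means of Krt5, Krt20, Upk1a, Upk1b, Upk2 and Upk3a were each under 1 CPM there, and Gata3 averaged 14.6 CPM in irradiated KPC cells and 16.3 CPM in KPC controls, so these markers give the bladder label little support. Among pancreatic duct markers, Krt19 averaged 416 CPM in irradiated KPC cells and 80.7 CPM in KPC controls, against 3.25 and 3.85 CPM in the irradiated and untreated MB49 groups. Pdx1 averaged 21.8 CPM in irradiated KPC cells and 76.7 CPM in KPC controls, and 2.91 and 17.3 CPM in the irradiated and untreated MB49 groups. Sox9 averaged 118 to 143 CPM over the 4 groups, and Cftr was at 0 in KPC. The leukocyte marker Ptprc was at 0.02 CPM or less in each group. The leukocyte list still summed to 427 to 518 CPM in irradiated MB49 cells and 57.5 to 71.2 CPM in MB49 controls, nearly all of it Cd68, a lysosomal protein of macrophages and other cells. In KPC the same sum was 213 to 231 CPM after 8 Gy and 2.47 to 2.91 CPM in controls. Markers of neurons and Schwann cells summed to 344 to 457 CPM in irradiated MB49 cells and 52.9 to 68.3 CPM in MB49 controls, mostly from the tubulin Tubb3, while Sox10 and Rbfox3 were at 0.30 CPM or less in each group. The mesenchymal list, nearly all Vim, summed to 10218 to 12033 CPM in irradiated MB49 cells and 2976 to 3824 CPM in MB49 controls. In KPC it summed to 8689 to 8913 CPM after 8 Gy and 653 to 690 CPM in controls. Snai2 of that list went the other way in MB49, at 6.70 CPM after 8 Gy and 90.4 CPM in controls. It had 0 counts in KPC. Cdh2 stayed at 0.903 CPM or less in each group. The epithelial list, mostly Krt8 and Krt18, summed to 2689 to 3521 CPM in irradiated MB49 cells and 2261 to 2731 CPM in MB49 controls. In KPC it summed to 2953 to 3306 CPM after 8 Gy and 706 to 805 CPM in controls. Cdh1 of that list averaged 0.0664 CPM in irradiated MB49 cells and 0.945 CPM in MB49 controls. In KPC, Cdh1 averaged 143 CPM after 8 Gy and 39.0 CPM in controls. Epcam averaged 1.24 CPM or less in each group. The fibroblast list summed to 154 to 210 CPM in irradiated MB49 cells and 43.7 to 50.1 CPM in MB49 controls, and to 53.3 to 63.7 CPM in irradiated KPC cells and 101 to 135 CPM in KPC controls. Different genes made up this sum in the lines. In MB49 they were Dcn (137 CPM after 8 Gy and 36.1 CPM in controls) and Pdgfra (39.6 and 11.1 CPM). In KPC it was mostly Pdgfrb (51.2 CPM after 8 Gy and 104 CPM in controls), with Dcn at 0.268 CPM or less. The endothelial list stayed at 2.01 CPM or less. Whether these shifts take part in the results was not tested.

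Some libraries stood apart from their group. By chi-square of counts per degree of freedom, MB49 control library 3 lay at 53.7 and 54.4 from the other MB49 controls, which lay at 14.8 from each other, and KPC control library 1 at 99.0 and 143 from the other KPC controls, which lay at 23.1. Irradiated MB49 library 3 lay at 48.4 and 36.6 from the others, which lay at 9.68. This measure took in the ribosomal RNA gene Rn18s-rs5. That gene held 5.11% of the counts of KPC control library 1, against 0.547 and 0.313% in the other KPC controls. How much of the library's distance came from this gene was not separated. On log CPM, KPC control library 1 correlated at 0.989 and 0.984 with the other KPC controls, which correlated at 0.991 with each other. MB49 control library 3 also held 3.73 CPM of Epcam, 2.69 CPM of Cdh1 and 1.17 CPM of Krt20, where both other MB49 controls had 0 of Epcam and Krt20 and at most 0.0733 CPM of Cdh1. Without it, 25 of 49 members tested were called in MB49 (19 higher and 6 lower), beside 65.9% of all genes. Between the controls of the lines 38 of the 49 were called (25 higher and 13 lower in KPC), beside 67.4% of all genes.

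Guidance genes encode signals that steer growing axons and, in epithelia and tumours, cell contact, repulsion and migration. Ephrins sit in the membrane of one cell and bind Eph receptor tyrosine kinases on its neighbour, with A-class ephrins anchored by a lipid and B-class ephrins spanning the membrane. Semaphorins, secreted or membrane-bound, act mainly through plexins, which regulate small GTPases, with neuropilins as co-receptors of most class 3 members. Slits are secreted ligands of some Robo receptors, and netrins are laminin-like ligands of Dcc, neogenin and Unc5 receptors.

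Irradiated MB49 cells had higher levels than MB49 controls in 21 of the 48 tested guidance genes and lower levels in 8, at an adjusted p under 0.05 in edgeR's quasi-likelihood test. The share called, 60.4%, stood beside 66.9% of all genes tested. Calls of higher genes made up 35.3% of all genes and calls of lower genes 31.6%. The median log2 fold change over the 48 was 0.43, against 0.04 over all genes. Of the members, 14 rose and 5 fell at least 2-fold, where 20.7% of all genes rose and 17.4% fell that far.

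In irradiated KPC cells 16 of the 48 were higher than in KPC controls and 14 were lower, a share called of 62.5% beside 63.3% of all genes. The background was 31.3% for higher and 32% for lower calls. Here the median was -0.04, against -0.01 over all genes. With library totals in place of TMM factors, which equalise the bulk of genes between libraries, the median of all genes in KPC shifted to -0.39 and the members split into 10 higher and 21 lower. In MB49 that scaling put the median of all genes at -0.23 and the members at 17 higher and 9 lower. It added lower calls for Efna3, Efna4, Efna5, Ephb3, Ntn3, Plxna1 and Plxnd1 in KPC, from -1.01 to -0.46, and for Sema3f in MB49 (-0.35). Of 14362 genes tested, that scaling called 3085 higher and 6621 lower in KPC. In MB49 it called 3819 higher and 5850 lower. Folds given here are relative to the TMM-scaled bulk of genes. The 3 irradiated libraries lay all above or all below the 3 controls in 27 members in MB49 (21 above and 6 below), where 67.3% of all genes did. In KPC they did so in 33 members (18 above and 15 below), where 69.7% of all genes did.

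Both lines moved the same way in 17 members, with 12 higher and 5 lower in both. These were 25% and 10.4% of the tested members, beside 20.2% and 19.9% of all genes. Opposite calls were made for 3 members, all higher in irradiated MB49 cells and lower in irradiated KPC cells, 6.25% of members beside 3.40% of all genes. A further 9 passed the threshold only in MB49, 10 only in KPC and 9 in neither. The 2 responses differed in 25 of the 48 members, 18 of them with the lower value in KPC and 7 with the higher, a share of 52.1% where 42.9% of all genes differed. The background was 22% with the lower and 20.9% with the higher value in KPC. This difference was tested as an interaction, the KPC log2 fold change minus that of MB49.

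**Figure D1:**
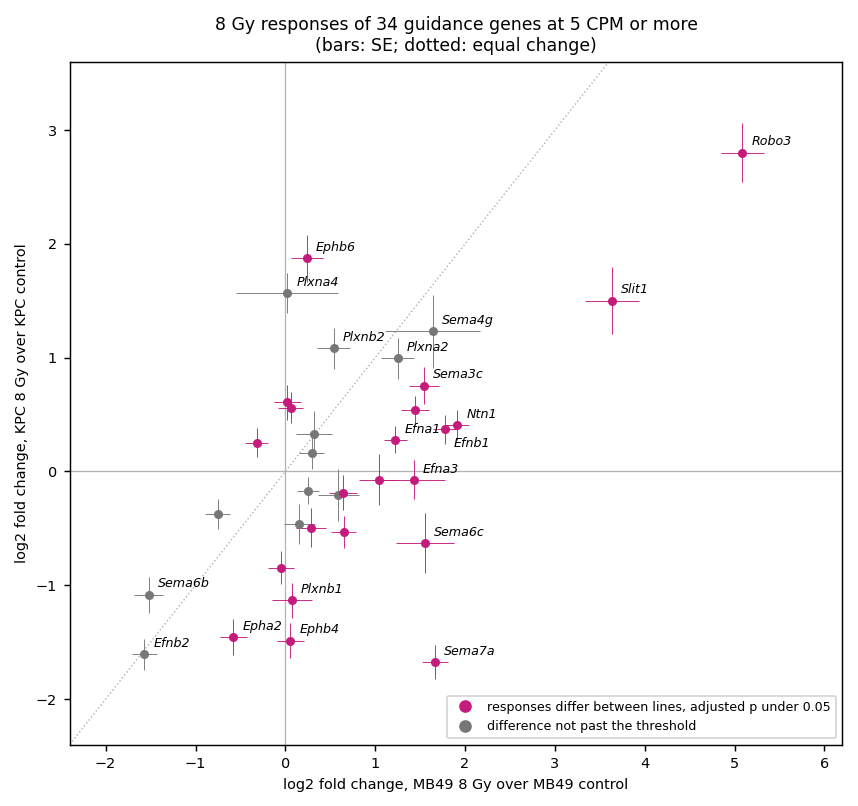
Log2 fold change after 8 Gy in MB49 (horizontal axis) and in KPC (vertical axis) for 34 guidance genes with at least 5 CPM in some group; bars are standard errors. Pink genes have responses that differ between the lines; Robo3 lies far right at 5.09 and 2.80, and Sema7a lies right of and below zero at 1.67 and -1.67. The 4 genes with a group at 3 counts or fewer in a line (Efna4, Ephb3, Plxnb3 and Slit2) are not drawn.

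The scatter of the 2 responses separates a few patterns that recur in the families: genes raised in both lines (Robo3, Slit1, Plxna2, Sema3c), genes lowered in both (Efnb2, Sema6b, Epha2), genes lowered in KPC alone (Ephb4, Plxnb1), and Sema7a with opposite signs.

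Among members called in a line where a group had at least 5 CPM, the largest 8 Gy changes were, in order, those of Robo3, Slit1, Ntn1, Ephb6, Efnb1 and Sema7a. Slit1 and Ntn1 had no entry among the RefSeq promoter windows used. Upstream sequences of the other 4, as RefSeq gives them for GRCm38.p6, are shown with CpG dinucleotides in capitals. These promoters belong to the strongest responses that had such an entry. Each run is 5′ to 3′ on the gene's strand, ends at or before the base ahead of the annotated start, and leaves out bases that GENCODE M21, on the same assembly, places in an exon of the gene. The deposited counts rest on another build, GRCm39, and no coordinate was taken over from one to the other.
Robo3, chr9:37433247-37433425, minus strand: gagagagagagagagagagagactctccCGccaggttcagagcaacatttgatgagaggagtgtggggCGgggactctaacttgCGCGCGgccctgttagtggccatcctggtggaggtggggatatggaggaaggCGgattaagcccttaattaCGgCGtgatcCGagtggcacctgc
Ephb6, chr6:41605261-41605481, plus strand: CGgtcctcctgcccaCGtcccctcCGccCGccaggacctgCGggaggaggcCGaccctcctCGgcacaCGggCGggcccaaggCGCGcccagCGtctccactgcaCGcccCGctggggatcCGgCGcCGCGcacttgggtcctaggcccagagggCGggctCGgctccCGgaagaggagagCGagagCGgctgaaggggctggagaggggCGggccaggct
Efnb1, chrX:99135811-99136060, plus strand: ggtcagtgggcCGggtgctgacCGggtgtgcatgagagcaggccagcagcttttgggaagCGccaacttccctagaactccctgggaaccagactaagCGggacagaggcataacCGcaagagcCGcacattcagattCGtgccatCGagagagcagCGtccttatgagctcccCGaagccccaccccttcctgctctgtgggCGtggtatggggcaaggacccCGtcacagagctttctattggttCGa
Sema7a, chr9:57939862-57940111, plus strand: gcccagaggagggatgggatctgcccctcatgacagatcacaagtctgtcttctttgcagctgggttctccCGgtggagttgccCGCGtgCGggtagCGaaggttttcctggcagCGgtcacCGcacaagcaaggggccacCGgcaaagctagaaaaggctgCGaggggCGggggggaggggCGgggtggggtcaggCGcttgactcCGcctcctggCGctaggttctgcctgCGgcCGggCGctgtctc
The Ephb6 run of 221 bases held 24 CpG and the Sema7a run of 250 bases held 17. Efnb1 had 13 CpG in 250 bases and Robo3 had 9 in 179 bases. Over the full 250 bases ahead of each start, 55 windows of tested members had a median of 16 CpG, against 6 in 32851 windows of all genes. The 55 windows belong to 41 of the 48 tested members. The background also takes in genes not tested here, so the medians cannot be read as a trait of guidance genes. The letters TGANTCA of the AP-1 motif, on either strand, stood in 6.75% of all windows, CACGTG of the E-box in 6.02%, TTTC and TTTC with 2 bases between, of the ISRE core, in 2.98% and TTCNNNGAA of the GAS element in 7.02%. None of these letters stood in the windows of Robo3, Ephb6, Efnb1 or Sema7a. In the 55 windows of tested members, the AP-1 and E-box letters each stood in 5.45%. The ISRE core and GAS letters each stood in 1.82%. Each of these shares rests on 3 windows or fewer. The motifs were chosen because their factors were known from earlier results of these data to move.

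Of 8 ephrins, all tested, 3 were higher and 3 lower in irradiated MB49 cells, and 1 was higher and 2 lower in irradiated KPC cells. The B class turned over in both lines, with less Efnb2 and more Efnb1 after 8 Gy. In bulk RNA, fewer cells with a transcript and less of it per cell cannot be told apart, here and below. Efnb2, a transmembrane ligand of EphB receptors and of EphA4, had 37.0, 38.5 and 42.7 CPM in irradiated MB49 libraries, against 117, 123 and 111 CPM in MB49 controls. Irradiated KPC libraries had 34.9, 30.0 and 31.2 CPM, against 76.6, 103 and 113 CPM in KPC controls. Each irradiated library lay well below each control of its line. Efnb2 fell by a log2 fold change of -1.57 ± 0.14 (SE) in MB49 (adjusted p = 2.29e-08) and -1.61 ± 0.14 in KPC (adjusted p = 2.06e-08). The 2 falls differed by -0.04 ± 0.19, which did not pass the threshold (adjusted p = 0.909).

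Efnb1, the X-linked transmembrane ligand of EphB receptors, had 42.0, 40.7 and 32.2 CPM in irradiated MB49 libraries and 11.2, 10.6 and 11.8 CPM in their controls. It had 54.2, 52.2 and 61.1 CPM in irradiated KPC libraries, against 37.7, 45.7 and 46.1 CPM in KPC controls. The groups did not overlap in either line, with the gap wide in MB49 and narrow in KPC. Efnb1 rose by 1.77 ± 0.14 in MB49 (adjusted p = 4.61e-09) and 0.37 ± 0.13 in KPC (adjusted p = 0.0183). The KPC rise missed the threshold without KPC control library 1 (0.30, adjusted p = 0.0545) and without irradiated KPC library 3 (0.30, adjusted p = 0.0878), and with library totals only its value was -0.02, adjusted p = 0.91. The remaining B-class ephrin, Efnb3, was scarce at 0.505 CPM in irradiated MB49 cells against 1.29 CPM in controls, and 0.400 CPM in irradiated KPC cells against 1.21 CPM in controls. It fell in both lines (adjusted p = 0.00353 in MB49 and 0.00129 in KPC).

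Per gene length, Efnb1 made up 58.2% ± 5.23 (SD, n = 3) of the B-class ephrin signal in irradiated MB49 cells and 12.2% ± 1.05 in MB49 controls. In KPC its share was 71.5% ± 2.45 after 8 Gy, against 39.2% ± 2.19 in controls. Efnb2 took nearly all of the rest, so irradiated cells of both lines held more Efnb1 than Efnb2 per kilobase, and controls of both lines the reverse.

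The A-class ephrins moved mainly in MB49. Efna1, a ligand of EphA2 known to be induced by TNF, had 55.1, 52.3 and 41.8 CPM in irradiated MB49 libraries, against 22.8, 19.1 and 21.9 CPM in controls. In KPC the values were 66.3, 65.0 and 64.3 CPM after 8 Gy and 56.0, 52.3 and 53.2 CPM in controls. Irradiated libraries lay above controls in both lines, but by far more in MB49. The MB49 rise was 1.23 ± 0.12 (adjusted p = 1.37e-07); the KPC value of 0.28 ± 0.12 missed the threshold (adjusted p = 0.0518), though it passed by DESeq2 (0.33, adjusted p = 0.0145) and with RLE size factors (0.33, adjusted p = 0.0253), and the responses differed by -0.95 ± 0.17 (adjusted p = 0.000302). Efna5 passed in neither line, with 0.25 in MB49 and -0.17 in KPC. Efna2, Efna3 and Efna4, all A-class, were nearly confined to KPC, where the 8 Gy values of -0.01 ± 0.27, -0.07 ± 0.17 and -0.15 ± 0.17 did not pass. Efna3 had 50 counts in irradiated MB49 cells and 24 in MB49 controls, a rise of 1.43 ± 0.35 at a low level (adjusted p = 0.00158). Efna2 had 1 count in irradiated MB49 cells and 10 in MB49 controls, an MB49 control to irradiated ratio of 7.65 with an exact 95% interval of 1.09 to 332. Its call as lower in MB49 (adjusted p = 0.0315) was lost without MB49 control library 3 (adjusted p = 0.181) and without irradiated MB49 library 1 (adjusted p = 0.0852) or 3 (adjusted p = 0.109).

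Of 10 Eph receptors tested, 3 were higher and 2 lower in irradiated MB49 cells, and 4 higher and 2 lower in irradiated KPC cells. Epha2, the kinase that leads the EphA class in many carcinomas, had 697, 671 and 482 CPM in irradiated MB49 libraries, against 1017, 840.1 and 903 CPM in controls. Epha2 had 441, 387 and 443 CPM in irradiated KPC libraries and 966, 1198 and 1324 CPM in KPC controls. The irradiated libraries lay below the controls in both lines, with the wider gap in KPC. Epha2 fell by -0.58 ± 0.15 in MB49 (adjusted p = 0.00318) and -1.46 ± 0.16 in KPC (adjusted p = 3.44e-07), and the KPC fall was the deeper by -0.88 ± 0.22 (adjusted p = 0.00361). Of the EphA signal per gene length, Epha2 still made up 98.7% ± 0.178 in irradiated MB49 cells, 99.5% ± 0.0659 in MB49 controls, 98.7% ± 0.148 in irradiated KPC cells and 99.7% ± 0.0111 in KPC controls. Its ligand Efna1 rose in MB49, so ligand and receptor were called in opposite directions there.

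Ephb4, a receptor of ephrin-B2 known from the vein side of vessel formation, had 30.6, 27.3 and 35.3 CPM in irradiated KPC libraries and 72.0, 93.6 and 95.5 CPM in KPC controls. In MB49 it had 96.4, 95.8 and 72.4 CPM after 8 Gy, against 93.8, 75.3 and 85.3 CPM in controls. The KPC groups stood far apart, whereas the MB49 groups overlapped. Ephb4 fell by -1.49 ± 0.15 in KPC (adjusted p = 1.84e-07), its MB49 value was 0.06 ± 0.15 (adjusted p = 0.75), and the responses differed by -1.54 ± 0.21 (adjusted p = 2.12e-05). Zan overlaps Ephb4 on the opposite strand. It had 109 counts in irradiated KPC cells and 59 in KPC controls, where Ephb4 itself had 1864 counts after 8 Gy and 6569 in controls, and whether counting used the strand is not given.

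Ephb6, a family member whose kinase domain is inactive, rose in KPC at a low level, with 6.5, 6.98 and 7.26 CPM after 8 Gy and 2.16, 1.5 and 2.00 CPM in controls. In MB49 it had 18.0, 16.4 and 11.2 CPM after 8 Gy and 14.1, 12.4 and 12.1 CPM in controls, and those groups overlapped. The rise in KPC was 1.87 ± 0.20 (adjusted p = 4.27e-07), the MB49 value was 0.24 ± 0.18 (adjusted p = 0.237), and the difference was 1.63 ± 0.27 (adjusted p = 0.00014). Ephb2, another ephrin-B receptor, had 139, 124 and 135 CPM in irradiated KPC libraries and 85.2, 88.3 and 97.1 CPM in controls, groups that did not overlap. It rose by 0.56 ± 0.13 in KPC (adjusted p = 0.00155), although with library totals only the value was 0.17, adjusted p = 0.224. The MB49 value was 0.06 ± 0.14 (adjusted p = 0.725). The difference of 0.50 ± 0.19 (adjusted p = 0.0426) missed the threshold with library totals only (0.42, adjusted p = 0.0661) and without MB49 control library 1, irradiated MB49 library 3, KPC control library 2 or irradiated KPC library 1 or 3, with values from 0.35 to 0.49.

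The EphB make-up therefore shifted in KPC. Per gene length, Ephb2 took 58.6% ± 2.84 of the class in irradiated KPC cells and 36.6% ± 2.65 in KPC controls, while Ephb4 took 15.3% ± 0.927 after 8 Gy and 39.2% ± 1.73 in controls. In MB49, Ephb4 took 56.5% ± 1.46 after 8 Gy and 57.1% ± 1.48 in controls, values that lie within each other's spread. Ephb3, a receptor of B-class ephrins, held 22.2% ± 2.18 of the KPC signal after 8 Gy and 23.2% ± 1.23 in controls, and its KPC fold of -0.19 ± 0.17 did not pass (adjusted p = 0.345).

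The remaining EphA receptors were scarce, at 4.90 CPM or less in each group. Epha4, which binds ephrins of both classes, was called higher in both lines, with 4.90 CPM in irradiated MB49 cells against 3.32 CPM in controls and 3.17 CPM in irradiated KPC cells against 1.48 CPM in controls. The MB49 call (0.55, adjusted p = 0.0384) was lost with library totals only (0.26, adjusted p = 0.347), by DESeq2 (0.55, adjusted p = 0.052), with no filter on low counts, with only the 6 MB49 libraries, and without MB49 control library 3, irradiated MB49 library 1 or 3, KPC control library 1 or irradiated KPC library 1 or 3, with values from 0.37 to 0.58. Epha8 was also called higher in both, with 142 counts against 93 in MB49 and 42 against 3 in KPC, a KPC ratio of 17.4 with an exact 95% interval of 5.55 to 87.5 that covers counting error only. Its MB49 call (0.98, adjusted p = 0.0195) was lost with library totals only (0.69, adjusted p = 0.0854), with no filter on low counts (0.86, adjusted p = 0.0655), and without MB49 control library 2 (0.71, adjusted p = 0.107) or irradiated MB49 library 2 (0.84, adjusted p = 0.0895). Epha10, whose kinase domain is inactive, rose in MB49 by 2.51 ± 0.52 (adjusted p = 0.000582), with 65 counts after 8 Gy and 15 in controls, and had 1 count in irradiated KPC cells and 0 in KPC controls. Irradiated MB49 libraries had 0.606 to 1.61 CPM of Epha10, and each other library 0.220 CPM or less. The gene passed the filter on low counts only through the group where it was high, so its call is not independent of that filter. Epha7 passed in neither line, although by DESeq2 it was lower in MB49 (-3.54, adjusted p = 0.0213). It had 0 counts in irradiated MB49 cells, 8 in MB49 controls, 59 in irradiated KPC cells and 93 in KPC controls. All 8 of the MB49 counts lay in MB49 control library 3, so the DESeq2 call rests on that library. Epha1 had 0 counts in irradiated MB49 cells and 12 in MB49 controls, at least 3.06-fold lower if 3 counts are taken as the group's floor; Zyx overlaps it on the opposite strand and had 8577 counts in irradiated MB49 cells and 22864 in MB49 controls.

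**Figure D2:**
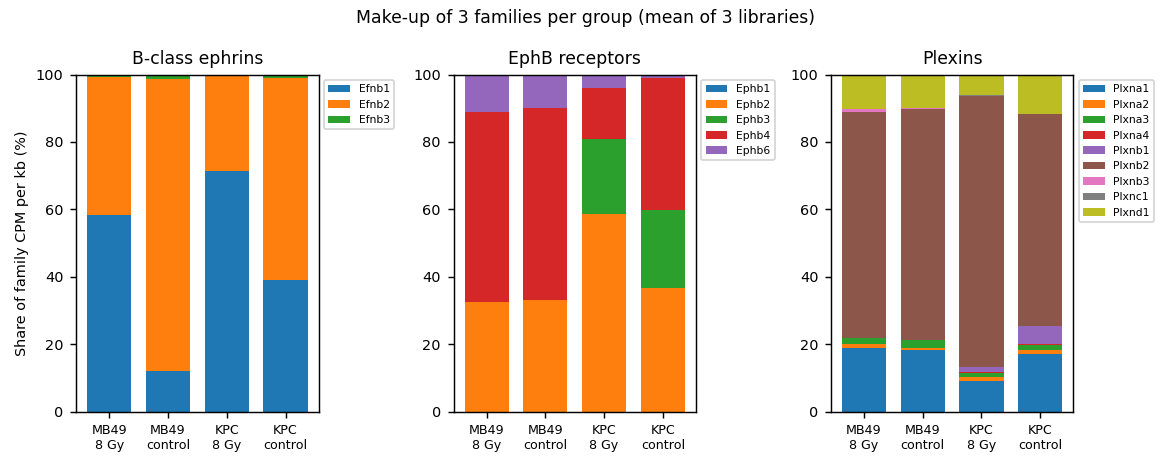
Share of the summed CPM per kilobase (vertical axis, percent) that each gene takes of the B-class ephrins, the EphB receptors and the plexins, as the mean of 3 libraries in each of the 4 groups (horizontal axis). Efnb1 takes 58.2% in irradiated MB49 cells and 12.2% in MB49 controls, Ephb4 takes 15.3% in irradiated KPC cells and 39.2% in KPC controls, and Plxnb2 takes 80.4% in irradiated KPC cells and 62.9% in KPC controls.

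The stacked shares are drawn for 3 families; the Slit and netrin shares are given with those genes. The shares add up to 100% per group, so a rise of one gene's share can come with a fall of another's without a change in its own level.

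Semaphorins were the largest family, with 16 of 20 tested. In irradiated MB49 cells 7 were higher and 2 lower, and in irradiated KPC cells 4 were higher and 7 lower. Sema7a, a lipid-anchored semaphorin that signals through integrins and plexin C1, went opposite ways. It had 49.1, 46.3 and 34.9 CPM in irradiated MB49 libraries, against 14.5, 13.6 and 12.9 CPM in controls. The KPC libraries gave 9.53, 8.07 and 9.89 CPM after 8 Gy and 26.0, 30.9 and 30.6 CPM untreated. Each irradiated MB49 library lay above, and each irradiated KPC library below, the controls of its line. The rise in MB49 was 1.67 ± 0.14 (adjusted p = 2.09e-08), the fall in KPC -1.67 ± 0.15 (adjusted p = 3.22e-08) and their difference -3.34 ± 0.21 (adjusted p = 3.44e-09), the most negative among members with at least 5 CPM in some group.

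The 2 other members with opposite calls are transmembrane semaphorins. Sema4c, a plexin B2 ligand, averaged 23.0 CPM in irradiated MB49 cells and 14.7 CPM in controls, with a rise of 0.65 ± 0.14 (adjusted p = 0.000581). In KPC it averaged 14.5 CPM after 8 Gy and 21 CPM in controls, with a fall of -0.53 ± 0.14 (adjusted p = 0.0033). Sema6c had 3.40, 2.07 and 1.35 CPM in irradiated MB49 libraries and 0.581, 0.770 and 0.955 CPM in controls, a rise of 1.55 ± 0.32 at a low level (adjusted p = 0.000433). In KPC, Sema6c had 4.42, 3.56 and 5.26 CPM after 8 Gy and 5.95, 6.47 and 8.01 CPM in controls, a fall of -0.63 ± 0.26 (adjusted p = 0.0444). That fall missed the threshold by DESeq2 (-0.57, adjusted p = 0.0789), with RLE size factors (-0.58, adjusted p = 0.0657), and without irradiated MB49 library 2, KPC control library 2 or 3 or irradiated KPC library 1 or 2, where values ran from -0.67 to -0.49.

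Class 3 semaphorins are secreted. Sema3c, a neuropilin ligand linked to migration in several carcinomas, had 63.7, 50.4 and 74.4 CPM in irradiated MB49 libraries, against 20.9, 25.7 and 18.0 CPM in controls. Irradiated KPC libraries had 109, 117 and 89.4 CPM, against 52.7, 65.6 and 68.5 CPM in KPC controls. Irradiated libraries lay above controls in both lines. Sema3c rose by 1.54 ± 0.17 in MB49 (adjusted p = 3.78e-07) and 0.75 ± 0.16 in KPC (adjusted p = 0.000618), a difference of -0.79 ± 0.23 (adjusted p = 0.0109); with library totals only the KPC value was 0.37, adjusted p = 0.0984.

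Sema3f, a neuropilin 2 ligand known for repelling cells, averaged 84.7 CPM in irradiated KPC cells and 152 CPM in KPC controls, and fell by -0.85 ± 0.15 (adjusted p = 6.91e-05). Its MB49 value of -0.05 ± 0.15 did not pass (adjusted p = 0.783), and the responses differed by -0.80 ± 0.21 (adjusted p = 0.00493). Sema3e, which binds plexin D1 directly, averaged 36.1 CPM in irradiated KPC cells and 23.7 CPM in controls, a rise of 0.61 ± 0.16 (adjusted p = 0.00256; with library totals only 0.22, adjusted p = 0.298). In MB49 its value was 0.02 ± 0.15. The difference of 0.58 ± 0.22 (adjusted p = 0.0379) was lost with library totals only (0.49, adjusted p = 0.131) and on leaving out MB49 control library 1 or 2, irradiated MB49 library 1 or 2, KPC control library 2 or irradiated KPC library 1, 2 or 3, with values from 0.50 to 0.61. Sema3b averaged 88.7 CPM in irradiated MB49 cells and 111 CPM in controls, overlapping groups with a fold of -0.32 ± 0.13 (adjusted p = 0.0393). That call was lost without MB49 control library 1 or 3, irradiated MB49 library 2 or 3, KPC control library 2 or irradiated KPC library 1, with values from -0.35 to -0.18. Its KPC value was 0.25 ± 0.13 (adjusted p = 0.101), and the difference of 0.57 ± 0.19 (adjusted p = 0.0187) was lost without MB49 control library 1 (0.52, adjusted p = 0.0503) or irradiated KPC library 3 (0.53, adjusted p = 0.05).

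Sema6b, a transmembrane ligand of class A plexins, fell in both lines. It had 9.26, 8.83 and 6.81 CPM in irradiated MB49 libraries, against 25.5, 21.2 and 24.6 CPM in controls. Sema6b had 8.63, 6.98 and 9.27 CPM in irradiated KPC libraries and 15.3, 18.2 and 19.0 CPM in KPC controls. No irradiated library reached a control of its line. The falls were -1.52 ± 0.16 in MB49 (adjusted p = 2.32e-07) and -1.08 ± 0.16 in KPC (adjusted p = 1.35e-05), with a difference of 0.44 ± 0.22 that did not pass (adjusted p = 0.125).

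Sema5a and Sema4g, both membrane-spanning, rose in both lines. Sema5a had 6.5, 5.40 and 5.97 CPM in irradiated MB49 libraries and 2.32, 2.35 and 1.87 CPM in controls, a rise of 1.44 ± 0.16 (adjusted p = 3.84e-07). The KPC libraries gave 35.0, 31.5 and 33.7 CPM after 8 Gy and 20.7, 22.7 and 25.7 CPM untreated, a rise of 0.54 ± 0.13 (adjusted p = 0.00169; with library totals only 0.15, adjusted p = 0.36). The groups did not overlap in either line. Sema4g had 13.9, 12.9 and 16.6 CPM in irradiated KPC libraries and 7.03, 4.57 and 6.90 CPM in KPC controls, a rise of 1.23 ± 0.32 (adjusted p = 0.00344). In MB49 its mean was 1.04 CPM after 8 Gy and 0.348 CPM in controls, a rise of 1.64 ± 0.53 (adjusted p = 0.0131) that was lost without MB49 control library 2 (1.26, adjusted p = 0.0598) and was 3.16 without MB49 control library 3.

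Sema4a, a ligand with known roles in T cell priming, had 7.94, 8.54 and 6.34 CPM in irradiated MB49 libraries, against 3.85, 2.90 and 4.38 CPM in controls. It rose there by 1.04 ± 0.22 (adjusted p = 0.000427), with no overlap, while the KPC value was -0.07 ± 0.22 (adjusted p = 0.801) and the difference -1.11 ± 0.31 (adjusted p = 0.00832). Sema4d, the plexin B1 ligand also known as CD100, averaged 30.0 CPM in irradiated KPC cells and 42.2 CPM in controls, a fall of -0.49 ± 0.17 (adjusted p = 0.0174). That call was lost without KPC control library 3 (-0.31, adjusted p = 0.122) or irradiated KPC library 2 (-0.41, adjusted p = 0.078). In MB49, Sema4d was at 211 CPM after 8 Gy and 173 CPM in controls, with a value of 0.28 ± 0.16 (adjusted p = 0.138). The difference was -0.78 ± 0.24 (adjusted p = 0.0134). Sema6d fell in KPC by -0.46 ± 0.18 (adjusted p = 0.0298), a call lost by DESeq2 (-0.41, adjusted p = 0.0628), with RLE size factors, with no filter on low counts, and without KPC control library 3 or irradiated KPC library 2 or 3. Sema4b passed in neither line, with 0.29 in MB49 and 0.16 in KPC. The secreted Sema3a and Sema3g also passed in neither, at means of 0.543 CPM or less for Sema3a and 1.17 CPM or less for Sema3g.

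Of 8 plexins tested, the semaphorin receptors, 5 were called higher in irradiated MB49 cells, where 35.3% of all genes were called higher. In irradiated KPC cells 4 were higher and 1 lower, where 31.3% of all genes were higher and 32% lower. So few genes cannot show a trait of the family. The MB49 calls of Plxnb2 and Plxna1 were lost in some settings, and the KPC call of Plxnb3 rests on few counts, as given below. Plxnb2, a receptor of class 4 semaphorins, had 2070.2, 1751 and 2143 CPM in irradiated KPC libraries, against 754, 944 and 1119.6 CPM in KPC controls. In MB49 it had 1810.3, 1659 and 1137 CPM after 8 Gy and 1245, 1013 and 917 CPM in controls. The KPC groups did not overlap; in MB49 the lowest irradiated library lay below the highest control. Plxnb2 rose by 1.08 ± 0.18 in KPC (adjusted p = 5.9e-05) and 0.54 ± 0.18 in MB49 (adjusted p = 0.0148), and the difference of 0.54 ± 0.26 did not pass (adjusted p = 0.0964), though it did with no filter on low counts (0.67, adjusted p = 0.00441) and without MB49 control library 3 or KPC control library 3 (0.64 and 0.69). The MB49 call was lost with library totals only (0.23, adjusted p = 0.247) and without MB49 control library 3 or irradiated MB49 library 1 or 2, with values from 0.40 to 0.48.

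Plxna2, a class A receptor of class 6 semaphorins and of class 3 ones with neuropilins, rose in both lines. It had 45.6, 42.3 and 34.3 CPM in irradiated MB49 libraries and 19.3, 18.8 and 13.2 CPM in controls, and 58.6, 53.0 and 58.8 CPM in irradiated KPC libraries against 22.0, 26.6 and 36.9 CPM in KPC controls. Irradiated libraries lay above controls in both lines. Plxna2 rose by 1.25 ± 0.18 in MB49 (adjusted p = 1.17e-05) and 0.99 ± 0.18 in KPC (adjusted p = 0.000118). Plxna4, of the same class, had 20.7, 19.6 and 20.6 CPM in irradiated KPC libraries and 6.32, 6.32 and 7.93 CPM in KPC controls, a rise of 1.57 ± 0.18 with wide separation (adjusted p = 6.58e-07). In MB49 it was nearly silent, with 7 counts over the 3 irradiated libraries and 9 over the 3 controls.

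Plxnb1, the receptor of Sema4d, fell in KPC. It had 51.9, 44.0 and 52.4 CPM after 8 Gy and 88.6, 110.3 and 126 CPM in KPC controls, and the groups were far apart. The fall was -1.13 ± 0.15 (adjusted p = 5.11e-06), while in MB49, at 1.99 CPM after 8 Gy and 1.87 CPM in controls, the value was 0.07 ± 0.22 (adjusted p = 0.792). The responses differed by -1.20 ± 0.27 (adjusted p = 0.00188). In KPC, then, the B-class plexins were called in opposite directions, with Plxnb2 higher and Plxnb1 lower. Plxnb2 took 80.4% ± 0.574 of the plexin signal per gene length in irradiated KPC cells and 62.9% ± 1.18 in KPC controls, against 67.0% ± 1.05 in irradiated MB49 cells and 68.3% ± 0.767 in MB49 controls.

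Plxnd1, the receptor of Sema3e, averaged 253 CPM in irradiated MB49 cells and 162 CPM in controls, a rise of 0.65 ± 0.15 (adjusted p = 0.0014). Its KPC value was -0.19 ± 0.15 (adjusted p = 0.309) and the difference -0.83 ± 0.22 (adjusted p = 0.00549). Plxna1 averaged 610.3 CPM in irradiated MB49 cells and 405 CPM in controls, overlapping groups with a value of 0.59 ± 0.23 (adjusted p = 0.0331). That call was lost with library totals only (0.29, adjusted p = 0.264) and without MB49 control library 2 or 3 or irradiated MB49 library 1 or 2, with values from 0.41 to 0.59. Plxnb3 averaged 15.1 CPM in irradiated MB49 cells and 8.60 CPM in controls, and rose by 0.81 ± 0.21 (adjusted p = 0.00259). In KPC it had only 11 counts after 8 Gy and 1 in controls, a ratio of 13.6 with an exact 95% interval of 1.98 to 587. Plxna3 passed in neither line, with 0.32 in MB49 and 0.33 in KPC.

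The Slit, Robo and netrin group had 6 of 11 genes tested, with 3 higher and 1 lower in irradiated MB49 cells and 3 higher and 2 lower in irradiated KPC cells. Among members with at least 5 CPM in a group of the line compared, the largest rises lay here. Robo3, a Robo family receptor that lets commissural axons cross the midline, had 41.5, 40.6 and 34.8 CPM in irradiated MB49 libraries, against 1.13, 0.733 and 1.61 CPM in controls. Irradiated KPC libraries had 4.81, 5.64 and 4.69 CPM, against 0.998, 0.524 and 0.654 CPM in KPC controls. In both lines the transcript was scarce in controls, and each irradiated library lay well above each control. Robo3 rose by 5.09 ± 0.24 in MB49 (adjusted p = 8.2e-12) and 2.80 ± 0.26 in KPC (adjusted p = 4.74e-08), with the larger rise in MB49 (difference -2.28 ± 0.36, adjusted p = 9.29e-05). Summed over a group, this was 2308 counts against 88 in MB49, and 309 against 54 in KPC. Robo1, Robo2 and Robo4 stayed too low to test, so Robo3 made up 99.6% ± 0.398 of the Robo signal per gene length in irradiated MB49 cells and 98.0% ± 0.195 in irradiated KPC cells.

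Slit1, a secreted ligand of some Robo receptors, had 18.4, 18.1 and 10.7 CPM in irradiated MB49 libraries, against 1.93, 0.953 and 0.868 CPM in controls. Whether it acts on Robo3 was not tested. Slit1 had 4.96, 4.51 and 5.43 CPM in irradiated KPC libraries and 1.58, 1.35 and 2.33 CPM in KPC controls. The irradiated libraries lay above the controls in both lines. Slit1 rose by 3.64 ± 0.30 in MB49 (adjusted p = 1.05e-08) and 1.5 ± 0.29 in KPC (adjusted p = 0.000236), and the responses differed by -2.14 ± 0.41 (adjusted p = 0.000561). Slit2, another secreted Slit, had 0 counts in all 6 MB49 libraries. The KPC libraries gave 10.4, 8.98 and 11.0 CPM after 8 Gy and 10.2, 15.2 and 18.3 CPM untreated, overlapping groups. Its value was -0.53 ± 0.21 (adjusted p = 0.0445), a call lost by DESeq2 (-0.47, adjusted p = 0.0818), with RLE size factors, and without KPC control library 2 or 3 or irradiated KPC library 1, 2 or 3, with values from -0.59 to -0.34. Per gene length, Slit1 held 43.1% ± 0.612 of the Slit signal in irradiated KPC cells and 15.9% ± 3.63 in KPC controls.

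Ntn1, the founding netrin and a survival ligand of Dcc and Unc5 receptors, had 171, 174 and 142 CPM in irradiated MB49 libraries, against 48.4, 40.7 and 40.2 CPM in controls. Irradiated KPC libraries had 242, 206 and 248 CPM, against 154, 175 and 194 CPM in KPC controls. The groups did not overlap, and the irradiated MB49 libraries reached the range of untreated KPC cells. Ntn1 rose by 1.91 ± 0.13 in MB49 (adjusted p = 1.48e-09) and 0.41 ± 0.13 in KPC (adjusted p = 0.0106), a difference of -1.50 ± 0.18 (adjusted p = 7.12e-06); with library totals only the KPC value was 0.02, adjusted p = 0.91. Ntn4, a basement membrane netrin, averaged 6.99 CPM in irradiated MB49 cells and 11.8 CPM in controls, a fall of -0.75 ± 0.14 (adjusted p = 0.000127). In KPC it averaged 12.3 CPM after 8 Gy and 15.9 CPM in controls, a fall of -0.37 ± 0.13 (adjusted p = 0.0222) that was lost with RLE size factors (-0.32, adjusted p = 0.0505), with no filter on low counts, and without KPC control library 3 or irradiated KPC library 1 or 2, where values ran from -0.36 to -0.31. Ntn1 took 92.9% ± 0.687 of the netrin signal per gene length in irradiated MB49 cells and 67.1% ± 4.32 in MB49 controls. Ntn3 passed in neither line, with -0.15 in MB49 and -0.62 in KPC. Ntn1 and Ntn4 were thus called in opposite directions in each line.

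**Figure D3:**
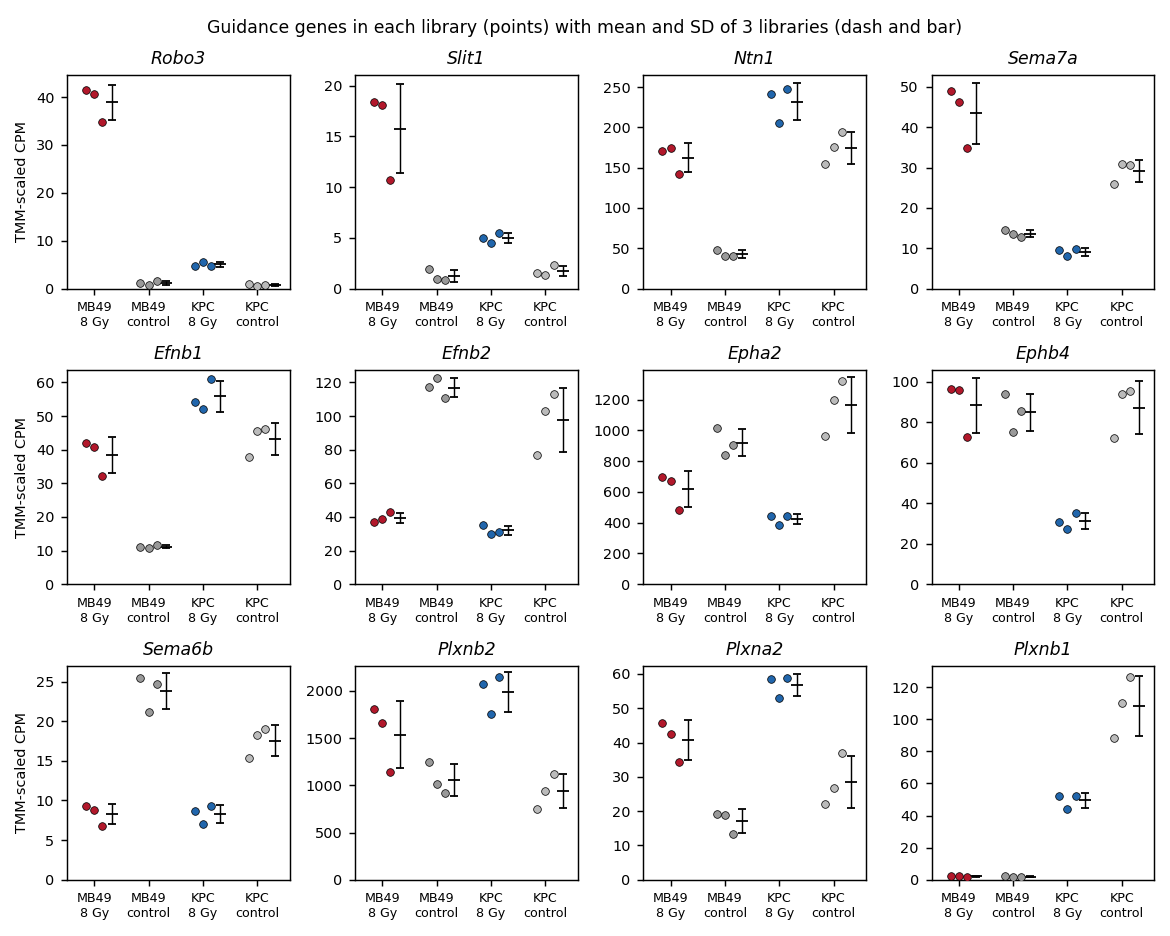
TMM-scaled CPM (vertical axis, from 0) of 12 guidance genes in each library (points) of the 4 groups (horizontal axis), with the mean and SD of 3 libraries beside them. Robo3 stands at 34.8 to 41.5 CPM in irradiated MB49 libraries and at 1.61 CPM or less in MB49 controls; Sema7a is high in irradiated MB49 cells and in KPC controls, and Efnb2 is low in the irradiated libraries of both lines.

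The panels also show libraries that sat low together. MB49 control library 3 was the lowest of its group for 7 of the 12 genes drawn. Irradiated MB49 library 3 was the lowest of its group for 11 of the 12 genes drawn, all but Efnb2. Irradiated KPC library 2 was the lowest of its group for 11, all but Robo3, and KPC control library 1 for 10, all but Robo3 and Slit1. KPC control library 1 also had 5.11% of its counts on the ribosomal RNA gene Rn18s-rs5, against 0.141 to 0.547% in the other libraries. Without irradiated MB49 library 3, members called in MB49 numbered 29 of 50 tested (23 higher and 6 lower), beside 63.9% of all genes. Without irradiated KPC library 2, members called in KPC numbered 25 of 50 (16 higher and 9 lower), beside 57.8% of all genes. Without KPC control library 1 they numbered 30 of 50 (16 higher and 14 lower), beside 59.4% of all genes.

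Untreated cells of the lines differed in 36 of the 48 members, 25 higher and 11 lower in KPC controls than in MB49 controls. The share called was 75%, where 67.3% of all genes differed, 33% higher and 34.4% lower in KPC. The median over the members was 0.49, against -0.02 over all genes. Libraries of the lines did not overlap in 35 members, 25 with KPC above and 10 with KPC below, where 68.6% of all genes did not overlap. Some members were present in one line and absent or nearly so in the other. Ephb3 had 3801 counts over the KPC controls and 2 over the MB49 controls, a ratio of 1970 with an exact 95% interval of 544 to 16300. Slit2 had 1100 counts in KPC controls and 0 in MB49 controls, at least 380-fold higher. Efna4, an A-class ephrin, had 1174 counts in KPC controls and 1 in MB49 controls, a ratio of 1220 with an interval of 218 to 48000. Plxnb3, a B-class plexin, ran the other way, with 1 count in KPC controls and 679 in MB49 controls, an MB49 to KPC ratio of 656 with an interval of 117 to 25900.

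The same contrasts were seen between irradiated cells. Ephb3 had 2648 counts in irradiated KPC cells and 0 in irradiated MB49 cells, at least 866-fold higher, and Slit2 had 608 in irradiated KPC cells and 0 in irradiated MB49 cells, at least 199-fold higher. Efna4 had 853 counts in irradiated KPC cells and 2 in irradiated MB49 cells, a ratio of 419 with an interval of 116 to 3460. The intervals cover counting error only.

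Among members with counts in both lines, Efna3, an A-class ephrin, had 29.1, 27.7 and 30.2 CPM in KPC controls and 0.400, 0.293 and 0.217 CPM in MB49 controls. KPC was higher by 6.53 ± 0.26 on the log2 scale (adjusted p = 3.85e-13). Plxnb1 was higher in KPC controls by 5.84 ± 0.20 (adjusted p = 5.43e-14) and Plxna4 by 5.82 ± 0.29 (adjusted p = 1.09e-11), with no overlap of libraries in either. Sema5a was higher in KPC controls by 3.39 ± 0.15 and Sema6c by 3.15 ± 0.31; Sema4g was higher by 4.21 ± 0.45, or 5.74, adjusted p = 1.57e-10 without MB49 control library 3, which held most of the MB49 controls' Sema4g counts.

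Lower in KPC controls were Ephb6, with 2.16, 1.5 and 2.00 CPM against 14.1, 12.4 and 12.1 CPM in MB49 controls (-2.77 ± 0.20, adjusted p = 1.66e-09), and Sema4d, with 35.4, 39.0 and 52.4 CPM against 198, 175 and 146 CPM (-2.03 ± 0.17, adjusted p = 1.2e-08). Sema3e was lower by -1.91 ± 0.16 and Sema4b by -1.19 ± 0.14 on the log2 scale. Sema4d and its receptor Plxnb1 were thus split, the ligand higher in MB49 controls and the receptor higher in KPC controls. Sema6b was lower in KPC controls by -0.44 ± 0.15 (adjusted p = 0.0166), a call lost without MB49 control library 1 (-0.39, adjusted p = 0.0643). Epha2, Ephb4, Efnb2, Plxnb2, Plxna1, Plxnd1, Robo3 and Slit1 did not pass between the controls, with values from -0.66 (Robo3) to 0.47 (Slit1). Several of these passed under other settings. Robo3 was called lower in KPC controls by DESeq2 (-0.66, adjusted p = 0.0446), with library totals only (adjusted p = 0.0413), with no filter on low counts (adjusted p = 0.033), and without MB49 control library 2 (-0.91) or KPC control library 1 (-0.99). Slit1 was called higher without MB49 control library 1 (0.93, adjusted p = 0.0201), Efnb2 lower without KPC control library 3 (-0.38, adjusted p = 0.0255), and Epha2 higher without MB49 control library 1, irradiated MB49 library 3 or KPC control library 1, with values from 0.34 to 0.42.

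**Figure D4:**
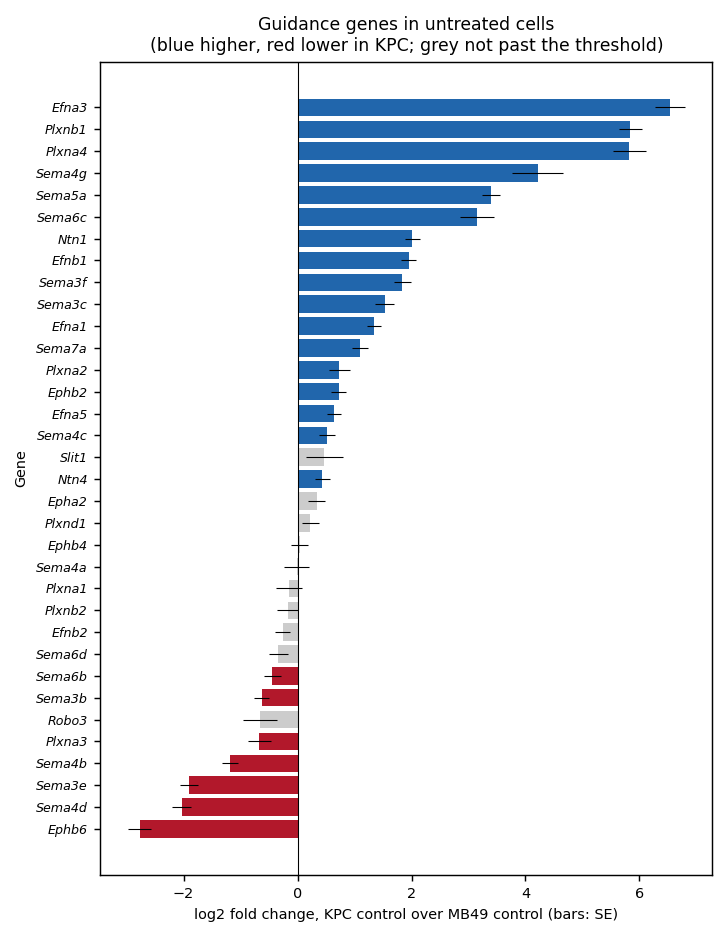
Log2 fold change of KPC controls over MB49 controls (horizontal axis) for 34 guidance genes (vertical axis) with at least 5 CPM in some group; bars are standard errors, blue genes passed as higher and red genes as lower in KPC. Efna3 stands at 6.53 and Ephb6 at -2.77; the 4 genes with a control group at 3 counts or fewer (Ephb3, Slit2, Efna4 and Plxnb3) are not drawn.

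Of 8 ephrins tested, 6 were called higher in KPC controls, though Efna2, Efna4 and Efnb3 are not among the ranked bars. Efnb2 and Efnb3 averaged 97.6 and 1.21 CPM in KPC controls, against 117 and 1.29 CPM in MB49 controls. Between irradiated cells 40 of 48 members differed, 21 higher and 19 lower in KPC, a share of 83.3% where 64.4% of all genes differed, 31% higher and 33.4% lower. Irradiated libraries of the lines did not overlap in 40 members, 20 in each direction, where 70.7% of all genes did not overlap. Sema7a, higher in KPC controls than in MB49 controls by 1.09 ± 0.14 (adjusted p = 2.98e-06), was lower in irradiated KPC than in irradiated MB49 cells by -2.25 ± 0.15 (adjusted p = 5.45e-10). Robo3 was lower in irradiated KPC cells by -2.94 ± 0.21 (adjusted p = 1.05e-09) and Slit1 by -1.67 ± 0.27 (adjusted p = 3.18e-05). Ephb4 was lower there by -1.51 ± 0.15 (adjusted p = 1.4e-07). Ntn1 and Efnb1 were still higher in irradiated KPC cells, by 0.51 ± 0.13 (adjusted p = 0.0023) and 0.54 ± 0.13 (adjusted p = 0.00144), against 2.02 and 1.95 between the controls.

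Levels per gene length allow genes to be set beside each other. Plxnb2 and Epha2 led in each of the 4 groups. Plxnb2 had 240.1 ± 55.3 CPM per kilobase (SD, n = 3) in irradiated MB49 cells and 165 ± 26.4 in MB49 controls, and Epha2 had 158 ± 30.0 in irradiated MB49 cells and 235 ± 22.9 in MB49 controls. In KPC, Plxnb2 had 311 ± 32.6 CPM per kilobase after 8 Gy and 147 ± 28.6 in controls, and Epha2 had 108 ± 8.10 after 8 Gy and 297 ± 46.4 in controls. In both lines Epha2 was thus the leading member in controls and Plxnb2 the leading member after 8 Gy, with the order of means set apart by more than either spread. Plxna1 ranked 3 in both MB49 groups, at 67.6 ± 14.1 after 8 Gy and 44.9 ± 11.4 in controls. In irradiated KPC cells Efna1 ranked 3, at 44.1 ± 0.670, close to Ntn1 at 40.4 ± 4.0; in KPC controls Sema3f ranked 3, at 63.9 ± 7.06. At least 1 CPM per kilobase was reached by 30 members in irradiated MB49 cells, 27 in MB49 controls, 37 in irradiated KPC cells and 34 in KPC controls.

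**Figure D5:**
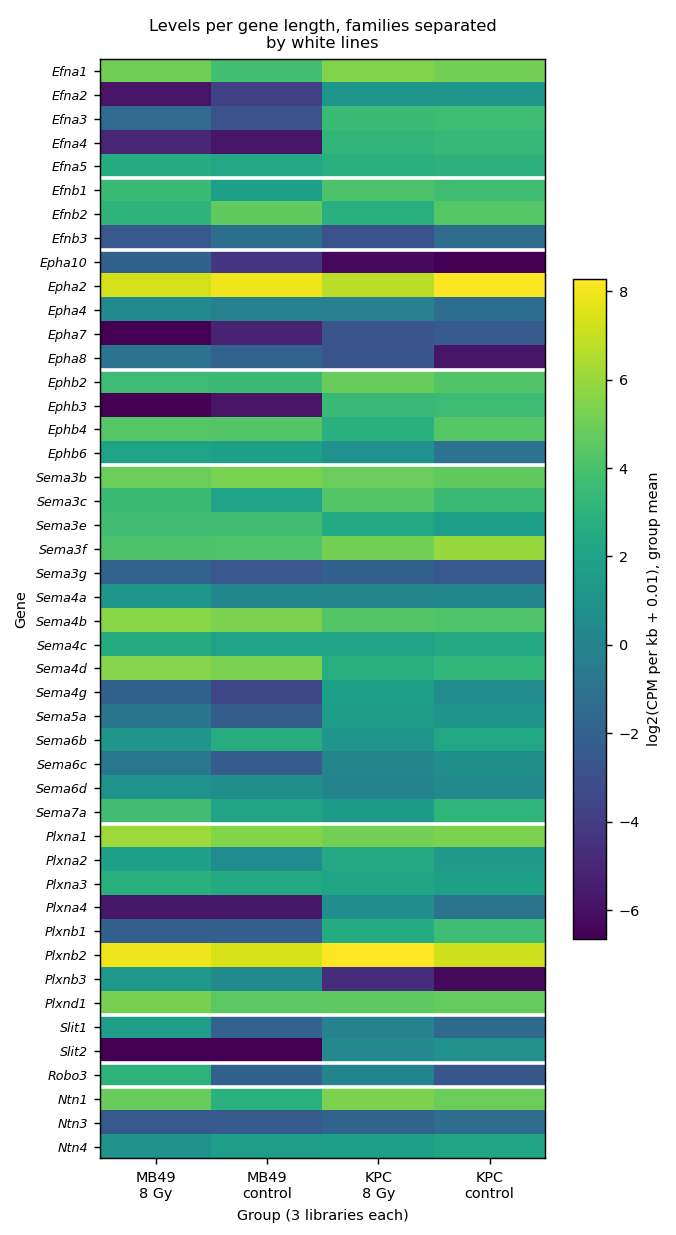
Group mean level per gene length, as log2(CPM per kb + 0.01) on the colour scale, of the 46 guidance genes with at least 1 CPM in some group (vertical axis) in the 4 groups of 3 libraries (horizontal axis). Epha2 and Plxnb2 are the brightest rows in each group, and Ephb3, Efna4 and Slit2 are dark in both MB49 columns.

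The heat map puts the families in order of role. Some rows stand out in 1 line, such as Efna3, Efna4 and Ephb3 in KPC and Plxnb3 in MB49. Among genes that work beside guidance receptors, a list of 87 co-receptors and signalling partners had 79 tested. In irradiated MB49 cells 30 were higher and 26 lower, a share called of 70.9% beside 66.9% of all genes. In irradiated KPC cells 28 were higher and 15 lower, a share of 54.4% beside 63.3% of all genes. Their median was 0.03 in MB49, against 0.04 over all genes, and 0.11 in KPC, against -0.01. Sh2d3c, an adaptor that binds Eph receptors, had 50.9, 50.0 and 37.4 CPM in irradiated MB49 libraries, against 2.25, 2.27 and 3.04 CPM in controls, and 59.7, 56.0 and 66.9 CPM in irradiated KPC libraries against 8.07, 7.75 and 6.99 CPM in KPC controls. It rose by 4.20 ± 0.17 in MB49 (adjusted p = 1.63e-12) and 3.0 ± 0.15 in KPC (adjusted p = 3.21e-11). Dok1, an adaptor of tyrosine kinases, rose by 1.93 ± 0.14 in MB49 and 1.45 ± 0.14 in KPC, while Tiam2, a Rac exchange factor, fell by -3.09 ± 0.15 and -1.73 ± 0.15. In MB49, Ngef (ephexin, an exchange factor tied to EphA receptors) rose by 3.98 ± 0.15, Srgap3 (a Slit-Robo GTPase-activating protein) by 2.05 ± 0.14 and Dpysl2 (a collapsin response mediator) by 1.44 ± 0.13. In KPC, Rgma (a neogenin ligand) fell by -1.39 ± 0.16, while Tiam1, another Rac exchange factor, rose by 1.16 ± 0.18 and Mical2, an enzyme that oxidises actin, by 1.09 ± 0.16.

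Dcc, Unc5b and Nrp2, receptors of ligands that moved, are given here and were named after their values were seen. Other receptors on the list, among them neogenin (Neo1), Unc5a and Nrp1, were tested but are not described. The full receptor set is therefore not shown. Dcc, the netrin receptor of commissural axons, had 0 counts in each group. Unc5b, a repulsive netrin receptor, averaged 3.43 CPM in irradiated MB49 cells and 4.17 CPM in MB49 controls, against 223 CPM in irradiated KPC cells and 185 CPM in KPC controls, and passed in neither line (adjusted p = 0.243 in MB49 and 0.143 in KPC). Nrp2, the neuropilin of Sema3f, fell in MB49 with 20.5, 22.6 and 19.2 CPM after 8 Gy and 48.6, 48.5 and 40.9 CPM in controls, and rose in KPC with 712, 618 and 712 CPM after 8 Gy and 294, 363 and 424 CPM in controls. The groups did not overlap in either line, and the responses differed by 2.07 ± 0.20 (adjusted p = 5.32e-07). In KPC the neuropilin rose while Sema3f fell, and in MB49 the neuropilin fell while Sema3f did not pass.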

How the data were processed

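RNA was extracted with TRIzol and libraries were made with a stranded mRNA kit of Illumina, per the labels' protocols. The submitters' processing notes name fastp, HISAT2, StringTie and the build GRCm39; neither the counting tool nor its strand setting is stated there. The authors deposited unscaled estimated counts for each gene, with a column of gene length that served for levels per kilobase. Their group-mean columns were not used. Read depth per library limits the precision of scarce genes. Counts were rounded to whole numbers, filtered with edgeR's filterByExpr by group (42818 rows removed, 14362 kept) and scaled by TMM factors of 0.829 to 1.18. The 12 libraries shared one robust quasi-likelihood fit, with a coefficient for each of the 4 groups (8 residual degrees of freedom, common biological coefficient of variation 0.150). Tests were 2-sided, and p-values were adjusted by Benjamini-Hochberg over all genes tested; the threshold was 0.05. Standard errors are the size of the log2 fold change over the square root of F. Ratios with a group at 1 to 3 counts carry exact Clopper-Pearson intervals, and the floor for 0 counts was 3 counts over a group. The fit was also run on simulated data, with equal group means apart from a small share of genes changed in irradiated MB49 cells. Far more genes were called in the real data, so that run cannot show how the scaling fares on them.

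The members and gene lists were chosen with earlier results of these data known. Members were described in full where called with at least 2-fold change and 5 CPM in the higher group, and partner genes were named where called with at least 2-fold change and 20 CPM, at most 6 per line; Unc5b, Nrp2 and Dcc were named after their values were seen. Promoters were matched by symbol to RefSeq. Software: edgeR (4.0.16), DESeq2 (1.42.0), limma (3.58.1) and the data.table package (version 1.17.8), run in R (4.3.3).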

Additional observations from a re-analysis of the deposited data

Results flagged for a closer look

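For 23 guidance genes with at least 5 CPM in some group, the responses to 8 Gy differed between the lines by the interaction test (adjusted p under 0.05, edgeR's quasi-likelihood test). Values are the KPC log2 fold change minus the MB49 one, from 3 irradiated and 3 control libraries in each line, and no cause was tested. The scarce Epha1 and Epha8, not listed here, also differed.

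Most ligands on this list had the lower value in KPC, but the list holds only genes that passed. Of 16 semaphorins tested, 8 passed with the lower value, 2 with the higher, and 6 did not pass. Of 8 ephrins tested, 3 passed with the lower value and 5 did not pass. Over all genes, 22% had the lower and 20.9% the higher value in KPC. Among semaphorins the difference was -3.34 for Sema7a, -2.18 for Sema6c, -1.18 for Sema4c, -1.11 for Sema4a, -0.91 for Sema5a, -0.80 for Sema3f, -0.79 for Sema3c and -0.78 for Sema4d. It was above zero for Sema3b (0.57) and Sema3e (0.58), both lost in some settings, as given above. Among ephrins it was -1.51 for Efna3, -1.40 for Efnb1 and -0.95 for Efna1. Slit1 had -2.14 and Ntn1 -1.50.

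Receptors on the list went both ways. Robo3 had a difference of -2.28, Ephb4 -1.54, Plxnb1 -1.20, Epha2 -0.88 and Plxnd1 -0.83. Values above zero were 2.50 for Plxnb3, 1.63 for Ephb6 and 0.50 for Ephb2, the last lost in some settings, as given above. The Plxnb3 value rests on 11 counts in irradiated KPC cells and 1 in KPC controls. It was lost by DESeq2 (2.91, adjusted p = 0.0557). It was also lost on leaving out MB49 control library 1 or 2, irradiated MB49 library 3, KPC control library 1 or 2 or irradiated KPC library 1 or 2, with values from 2.03 to 2.50, and it was 4.27 without KPC control library 3.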

How the results depend on the processing

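Counts of called members were recomputed under 2 other scalings, 2 other filters, unrounded counts, without ribosomal RNA genes, with only the 6 libraries compared, with DESeq2, with the replicate number as a block and without each library in turn. Library totals in place of TMM factors left 10 members higher in KPC (16 with TMM) and put Efnb1 in KPC at -0.0193 (0.37 with TMM), by a shift of all genes. Without a filter on low counts 11 members had the higher response in KPC (7 with the filter), over 62 members in place of 48. Over all genes this was 3677 of 26798, against 3002 of 14362 with the filter. Leaving out 1 library moved the members lower in KPC between 9 and 14, with 9 without KPC control library 3 or irradiated KPC library 2. Of all genes, 4411 of 14742 and 4278 of 14691 were lower in these settings, against 4596 of 14362 with every library. Members with the higher response in KPC moved between 4 and 9, with 4 without MB49 control library 1 or irradiated KPC library 1. There, 2768 of 14659 and 2698 of 14702 of all genes had the higher response, against 3002 of 14362 with every library. The replicate numbers did not pair the samples: deviations of same-numbered libraries correlated at 0.17, -0.18 and 0.05 in MB49 and -0.12, -0.02 and 0.02 in KPC. With the replicate block, 32 members were called in MB49, 29 in KPC and 30 for the difference, against 29, 30 and 25 without it. Over all genes the block called 66.3%, 62.9% and 41.9%, against 66.9%, 63.3% and 42.9% without it. It ended the KPC calls of Sema6c (-0.63, adjusted p = 0.0548) and Slit2 (-0.50, adjusted p = 0.0531), and added calls for Plxna3 in MB49 (adjusted p = 0.0493) and KPC (adjusted p = 0.0389), Epha7 (adjusted p = 0.0169) and Sema4b (adjusted p = 0.0422) in MB49, and the differences of Plxnb2 (adjusted p = 0.0377), Plxna1 (adjusted p = 0.00775), Sema6d (adjusted p = 0.0446), Efna2 (adjusted p = 0.0489) and Epha7 (adjusted p = 0.0439). The Epha7 calls rest on MB49 control library 3, which held all MB49 counts of that gene. Without irradiated MB49 library 3, Ephb6 (0.42), Sema4b (0.42) and Sema4d (0.43) passed in MB49, and without KPC control library 3 Plxna3 passed in KPC (0.52). Counts under about 20 in a group, as for Epha1, Plxnb3 in KPC and Plxna4 in MB49, limit what a fold can show.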
